A study of Mus musculus with 8 samples.

Results

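The S100 genes encode a family of small proteins, most of them calcium-binding. Of these genes 8, S100a1, S100a4, S100a6, S100a8, S100a9, S100a10, S100a11 and S100a13, were followed in single hematopoietic stem cells (HSCs). They were chosen by family name and by their measured values in these same cells, with S100a4 and S100a6 set against S100a8 and S100a9 because the pairs differed in direction between genotypes. The ratios between genotypes below are therefore a description. The 8 genes are 8 of the 10720 genes in the expression table. Of the 18 S100 family genes looked for, 9 were in the table, the other being S100a5, and the remaining 9 were not analysed here.

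The cells came from adult C57BL/6 bone marrow and were sorted as LSK cells (no lineage markers, Sca1 and c-Kit present) that were CD150+CD34-CD48-, then picked by hand. All mice carried Med23 L/L, a floxed allele of a subunit of the Mediator complex, and received poly(I:C). WT stands for animals without Mx1-cre, and KO for animals with Mx1-cre, a recombinase driven by an interferon-responsive promoter that is not limited to stem cells, so poly(I:C) treatment is shared by both groups. Age, sex and the number of animals behind the cells were not given in the sources used here. The labels name 4 batches of each genotype, numbered 1 to 4, each 1 sample of the series and called a library here. The table names cells by genotype and number only, so each genotype is 1 pool. No difference therefore has a replicate check, and no test was possible. Cell barcodes shared between libraries were not counted, since cells are named by number.

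Each cell's messenger RNA was primed at the poly(A) tail, and a unique molecular identifier (UMI) counted each molecule once whatever its length, so levels can be compared between genes as a share of the UMIs of a pool, scaled to 1000000 (CPM). The table holds the 586 cells that the authors retained. Counted over the genes in the table, 493 of these had at least 2000 detected genes and 20000 UMIs and were kept, 259 labelled WT with 21475782 UMIs and 234 labelled KO with 16180546. Med23 itself was at 5.68 CPM in the WT pool and 7.23 CPM in the KO pool (log2 ratio 0.35, interval -0.03 to 0.73), so its level was not shown to be lower in KO. Leaving out the KO cell with the most Med23, which held 28 of 117 UMIs, put the ratio at -0.04 (-0.45 to 0.36). The WT cell with the most Med23, holding 14 of 122 UMIs, was kept there, so no sign is read from this value. Med23 was found in 18.1% of WT and 11.5% of KO cells, and in 7.34% and 6.41% of them at an equal depth of 20000 UMIs. The authors reported efficient loss of Med23 in this mouse model after poly(I:C). The deleted exons are not given in the sources used here, and tags from the 3′ end check nothing if they lie outside them. All directions below are those of the pool labelled KO against the pool labelled WT. Kit (157 and 115 CPM) and Ly6a, which encodes Sca1 (273 and 189 CPM), were present in WT and KO as the sort requires. Slamf1, which encodes CD150, was at 39.0 and 8.16 CPM. Its KO level was near that of the egg-coat gene Zp3 in KO (7.17 CPM), so its presence in KO is not read from it. Of the genes whose proteins were selected against, Cd34 was at 178 and 304 CPM and Cd48 at 6.80 and 5.25 CPM. Transcripts of oocyte genes exceeded 1000 CPM in 70 cells labelled WT and 2 labelled KO. Those WT cells held 27.1% of the WT UMIs, so the ratios of the 8 S100 genes are given with and without such cells. For other genes this is done for some only, and a ratio given once is not shown to be unaffected.

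Most S100 proteins bind calcium through EF-hand loops, change shape and then bind partner proteins. Most form dimers, and several are also released from cells and act on surface receptors. S100a4 binds non-muscle myosin and is known for its part in cell motility, and S100a6, or calcyclin, binds the calcyclin-binding protein. S100a8 and S100a9 form calprotectin, which fills the cytoplasm of neutrophils and monocytes and appears as bone marrow cells mature along the myeloid lineage. S100a10 is the partner of annexin A2 and S100a11 of annexin A1, S100a1 is best known from muscle, and S100a13 takes part in the release of proteins that lack a signal peptide.

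The genes of the contrasting pairs are neighbours, and the 250 bases before the RefSeq start site of each (build GRCm38.p6, each on its own strand, 5′ to 3′) are shown to set their control regions side by side. Capitals mark every match to 1 of 6 motifs searched on both strands, the TATA box (TATAAA), the CCAAT box (CCAAT), the GC box (GGGCGG), a C/EBP-type motif (TTNNGNAA), a PU.1-type motif (GAGGAA) and an AP-1-type motif (TGANTCA).
S100a4, chr3:90603520-90603769, plus strand: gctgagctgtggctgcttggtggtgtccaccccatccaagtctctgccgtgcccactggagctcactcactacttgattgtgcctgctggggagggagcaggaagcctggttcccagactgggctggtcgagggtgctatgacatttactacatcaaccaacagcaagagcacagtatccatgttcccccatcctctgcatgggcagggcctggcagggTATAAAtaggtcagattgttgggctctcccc
S100a6, chr3:90612644-90612893, plus strand: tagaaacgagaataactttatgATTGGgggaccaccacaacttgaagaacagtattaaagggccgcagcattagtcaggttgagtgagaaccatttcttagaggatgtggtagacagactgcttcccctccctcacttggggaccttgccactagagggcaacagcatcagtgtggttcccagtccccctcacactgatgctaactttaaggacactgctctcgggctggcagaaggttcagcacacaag
S100a8, chr3:90668821-90669070, plus strand: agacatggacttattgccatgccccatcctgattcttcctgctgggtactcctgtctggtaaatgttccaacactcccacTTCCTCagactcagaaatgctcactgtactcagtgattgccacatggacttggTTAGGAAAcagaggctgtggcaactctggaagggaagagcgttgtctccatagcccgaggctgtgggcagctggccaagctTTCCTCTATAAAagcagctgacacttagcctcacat
S100a9, chr3:90695722-90695971, minus strand: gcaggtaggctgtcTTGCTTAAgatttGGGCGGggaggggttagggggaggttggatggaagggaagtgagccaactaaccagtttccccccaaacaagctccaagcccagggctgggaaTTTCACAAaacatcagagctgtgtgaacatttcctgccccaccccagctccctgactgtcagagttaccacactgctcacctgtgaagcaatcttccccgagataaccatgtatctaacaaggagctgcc

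The S100a4 and S100a8 windows each held 1 TATAAA, which began 31 and 30 bases before the start site, and neither the S100a6 nor the S100a9 window held one. TATAAA was found in 12.4% of the 32851 windows of this length in the RefSeq table. Matches to TTNNGNAA were found in the S100a8 window (1 match) and the S100a9 window (2 matches), against 36.8% of all windows with at least 1. S100a8 also had 2 matches to GAGGAA, read on the opposite strand as TTCCTC, and the nearer one adjoins its TATA box. GAGGAA was found in 23.3% of windows. CCAAT, in 33.8% of windows, had a match in S100a6 alone of the 4, and GGGCGG, in 32.7%, in S100a9 alone. None of the 4 windows held TGANTCA, which was in 6.75% of all windows, while the S100a11 window, not shown, held 2 matches to it and 3 to GGGCGG. The table held a window for 7 of the 8 genes, and none for S100a10. A match describes letters in a window and is no evidence of binding.

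S100a4 and S100a6, the myosin-binding and calcyclin-binding members, stood higher in the pool labelled KO. S100a4 had 1774 UMIs in WT and 4229 in KO, or 82.6 CPM (95% Poisson interval 78.8 to 86.5) and 261 CPM (254 to 269). Its log2 ratio was 1.66 (1.58 to 1.74), a 3.16-fold difference. S100a6 had 3926 and 7495 UMIs, or 183 CPM (177 to 189) and 463 CPM (453 to 474), with a log2 ratio of 1.34 (1.29 to 1.40). All intervals here cover counting error only and leave out differences between animals, libraries and cells.

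S100a8 and S100a9, the calprotectin subunits, were scarce in both pools and lower in KO. S100a8 had 377 UMIs in WT and 133 in KO, at 17.6 CPM (15.8 to 19.4) and 8.22 CPM (6.88 to 9.74), and a log2 ratio of -1.09 (-1.39 to -0.81). For S100a9 the counts were 129 and 52, the levels 6.01 CPM (5.01 to 7.14) and 3.21 CPM (2.40 to 4.21), and the log2 ratio -0.90 (-1.40 to -0.43). These values rest on few cells, and without the WT cell with the most S100a9 its ratio was 0.33.

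The annexin partners differed less. S100a10 was at 252 CPM in WT and 371 CPM in KO, a log2 ratio of 0.56 (0.50 to 0.61). S100a11 was at 382 and 496 CPM, with a log2 ratio of 0.38 (0.33 to 0.42). RefSeq lists a pseudogene of S100a11, and how reads shared with it were counted is not given in the sources used here. S100a1 (204 and 246 CPM) and S100a13 (192 and 217 CPM), adjacent genes that RefSeq places on opposite strands with overlapping 5′ ends, had the smallest log2 ratios, 0.27 (0.20 to 0.33) and 0.17 (0.11 to 0.24). For both, the sign turned in some other ways of averaging, with S100a1 at -0.12 and S100a13 at -0.10 for the mean over cells of the deposited values with the log2 undone.

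**Figure D1:**
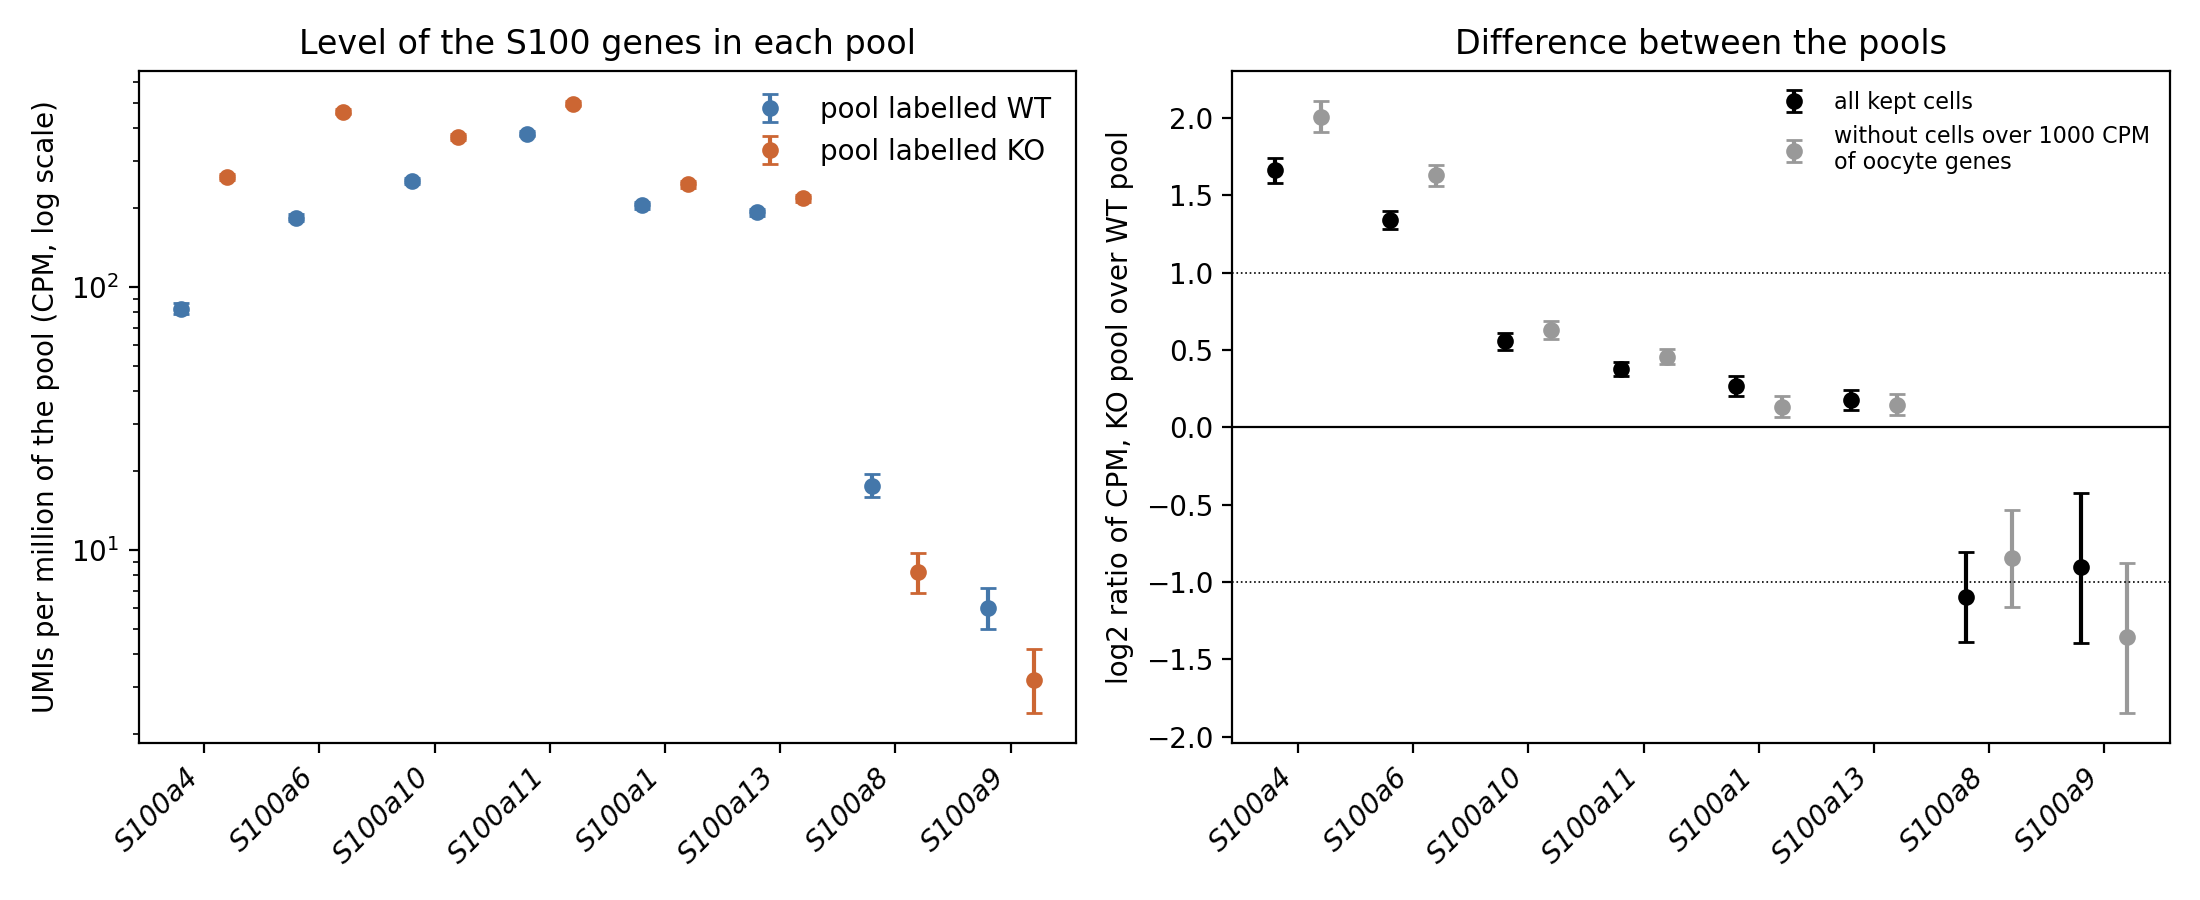
Left, level of each S100 gene in CPM (log axis) in the pools labelled WT and KO, with 95% Poisson intervals. Right, log2 ratio of KO over WT with 95% Clopper-Pearson intervals, in all kept cells (black) and without cells over 1000 CPM of oocyte genes (grey), with dotted lines at 2-fold. S100a4 and S100a6 lie above the upper dotted line in both sets of cells, S100a8 and S100a9 lie below 0, and S100a8 lies on the other side of the lower line once the oocyte-transcript cells are left out.

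By the 2-fold rule, 2 of the 8 genes were higher in KO, where 6.98% of all 10720 genes were, and 1 of 8, S100a8, was lower, where 7.94% of all genes were. The genes were chosen with these ratios known, so nothing is read from these counts. The median log2 ratio of the 8 was 0.32, beside 0.02 over all genes. Summed, the pair S100a4 and S100a6 had a log2 ratio of 1.45 (1.40 to 1.49) and the pair S100a8 and S100a9 of -1.04 (-1.29 to -0.80), a difference between pairs of 2.49 (2.24 to 2.75) on the log2 scale. All 8 genes together took 1319 CPM in WT and 2066 CPM in KO.

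The order of levels changed between the pools. In WT, S100a11 had the highest level, followed by S100a10, S100a1, S100a13, S100a6, S100a4, S100a8 and S100a9. The Poisson intervals of S100a1 (198 to 210 CPM) and S100a13 (186 to 198 CPM) touched, and that of S100a6 overlapped the latter. In KO, S100a6 came directly after S100a11 and S100a4 came after S100a10, ahead of S100a1 and S100a13. No neighbouring intervals overlapped in that order, although those of S100a4 and S100a1 were only just apart (254 to 269 and 238 to 253 CPM).

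The spread over single cells was far wider than the counting error of the pools. S100a4 ranged in WT cells from 0 to 1039 CPM with a median of 0, and in KO cells from 0 to 2092 CPM with a median of 173 CPM. S100a6 had a median of 79.5 CPM in WT and 368 CPM in KO. Its quartiles were 7.74 and 256 CPM in WT against 137 and 662 CPM in KO, so the distributions overlapped while their centres were apart. S100a10 (medians 210 and 290 CPM) and S100a11 (323 and 442 CPM) overlapped more widely. Summed over the 8 genes, cells labelled WT ranged from 86.7 to 4496 CPM (median 1231) and cells labelled KO from 499.6 to 6070 CPM (median 1921).

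Since cells differed in depth, each was thinned at random to 20000 UMIs before cells with a UMI were counted. S100a4 was then found in 81 of 259 cells labelled WT, 31.3% (exact binomial interval 25.7 to 37.3%), and in 160 of 234 labelled KO, 68.4% (62.0 to 74.3%). Without thinning the shares were 43.2% and 76.9%. S100a6 was found in 62.9% of WT cells (56.7 to 68.8%) and 90.2% of KO cells (85.6 to 93.7%), or 76.8% and 97.4% unthinned. The cells with a UMI also held more of them before thinning, on average 15.8 UMIs of S100a4 in WT and 23.5 in KO, and 19.7 and 32.9 of S100a6.

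Cells with many copies were also more frequent in KO. After thinning, 10 or more UMIs of S100a4 were counted in 10 WT cells (3.86%) and 50 KO cells (21.4%). For S100a6 these shares were 9.65% and 39.3%. S100a10 was found in 87.3% of WT and 93.6% of KO cells and S100a11 in 88.4% and 94.9%. S100a1 (68.7% and 73.1%) and S100a13 (74.1% and 77.8%) had shares with overlapping intervals. Every kept cell held at least 1 of the 8 genes and none held all 8. The share with UMIs of exactly 6 of them was 9.27% in WT and 37.2% in KO.

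**Figure D2:**
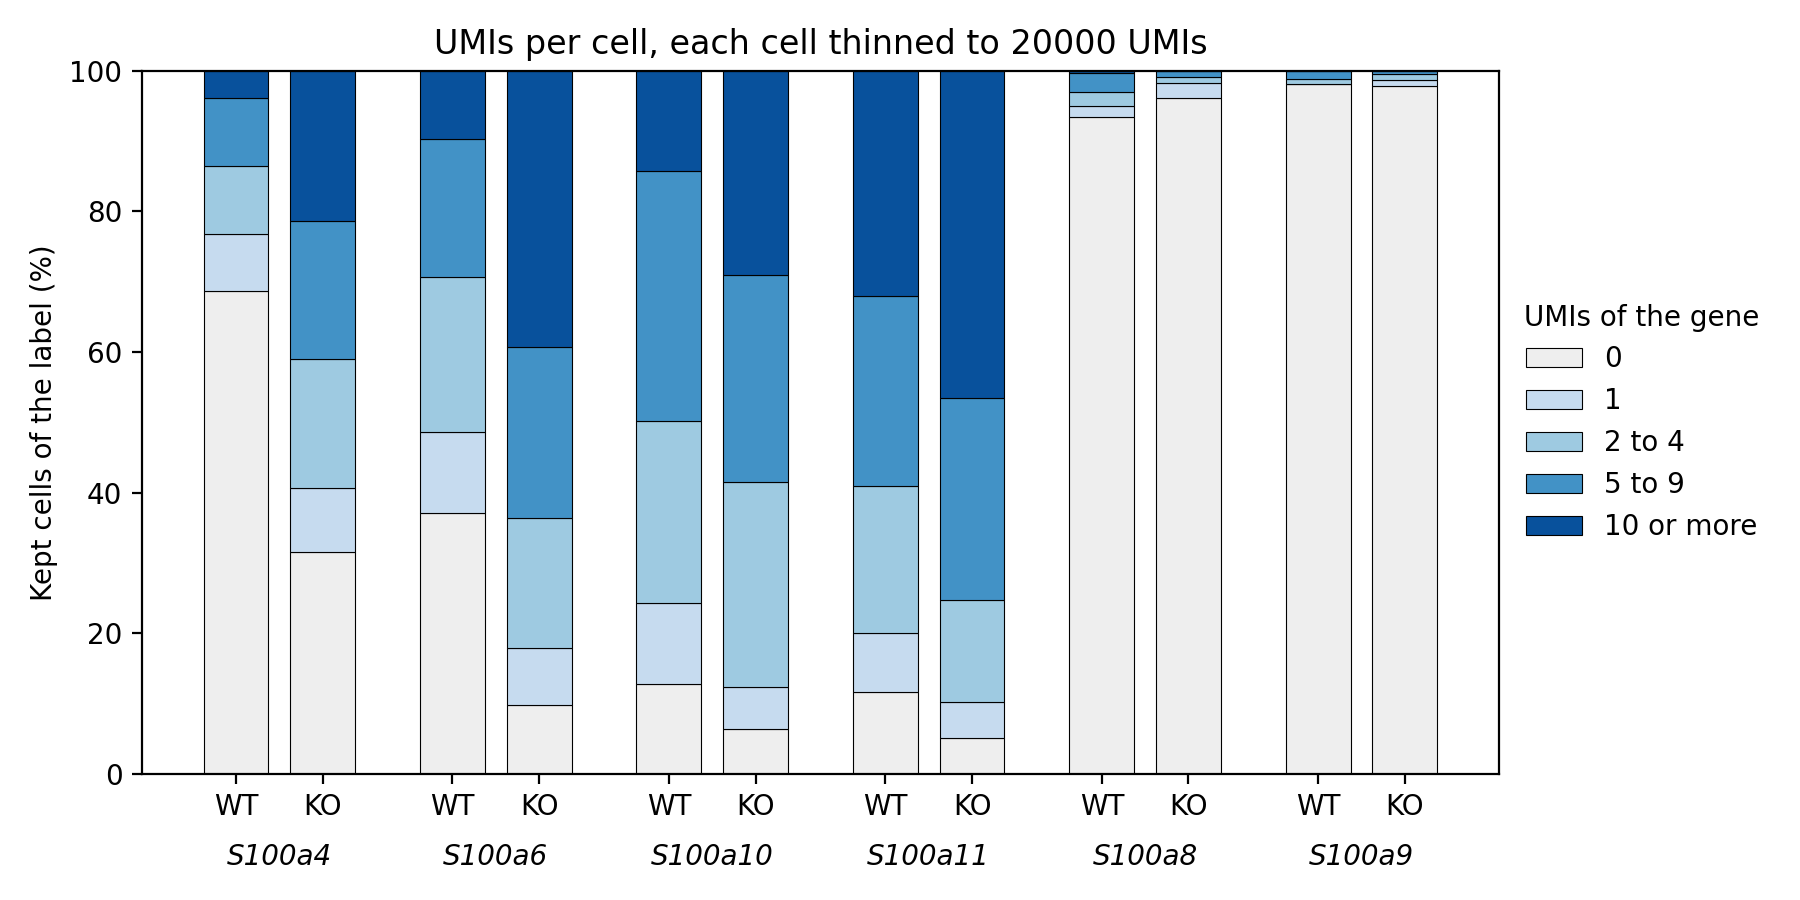
Share of kept cells (percent, 259 labelled WT and 234 labelled KO) with 0, 1, 2 to 4, 5 to 9 or 10 and more UMIs of each gene, after each cell was thinned to 20000 UMIs. The darkest class, 10 or more, covers 3.86% of WT and 21.4% of KO cells for S100a4, while S100a8 and S100a9 are at 0 in over 90% of cells of either label.

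S100a8 was found after thinning in 17 WT cells, 6.56% (3.87 to 10.3%), and 9 KO cells, 3.85% (1.77 to 7.18%). S100a9 was found in 5 cells of each label, 1.93% of WT (0.63 to 4.45%) and 2.14% of KO (0.70 to 4.92%). Unthinned, S100a8 was in 11.6% and 8.12% of cells and S100a9 in 2.70% and 2.56%. As a gauge of transcripts that HSCs should not make, Zp3, an egg-coat gene, was found after thinning in 48.3% of WT and 6.41% of KO cells, and in 36.0% and 6.03% without the cells over 1000 CPM of oocyte genes. The shares of S100a8 and S100a9 lie below this gauge in both pools, so no share of cells expressing calprotectin is read from them. The WT share of S100a4 also lies below the WT gauge, so it is not read as a share of expressing cells either. Its KO share lies above the KO gauge, but Zp3 tracks oocyte transcripts, which were scarce in KO. The KO share is thus not read as a share of expressing cells on this ground.

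Calprotectin transcripts sat in few cells. In WT the 10 cells with the most S100a8 held 90.2% of its UMIs, and in KO 93.2%. A single KO cell held 89 of the 133 S100a8 UMIs (66.9%) and 38 of the 52 S100a9 UMIs (73.1%). In WT, 1 cell held 75 of the 129 S100a9 UMIs (58.1%) together with 67 S100a8 UMIs. Another, which was over 1000 CPM of oocyte genes, held 115 S100a8 UMIs (30.5%) and none of S100a9. By contrast, the top 10 cells held 43.3% of S100a4 UMIs in WT and 29.6% in KO, and 28.4% and 25.1% of those of S100a6.

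The calprotectin ratios moved with these cells. Without the top cell of each label, the log2 ratio of S100a8 was -2.17 (-2.67 to -1.71) and that of S100a9 -1.55 (-2.51 to -0.68). Without the top WT cell alone, S100a9 stood at 0.33 (-0.25 to 0.91), so its sign turned, and S100a8 at -0.59 (-0.90 to -0.29). Without the top KO cell alone the values were -2.78 for S100a9 and -2.67 for S100a8. Leaving out the top cell of each label put S100a4 at 1.70 (1.62 to 1.79) and S100a6 at 1.39 (1.33 to 1.45). The S100a8 ratio was below 0 in each of these settings and the S100a9 ratio was not.

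**Figure D3:**
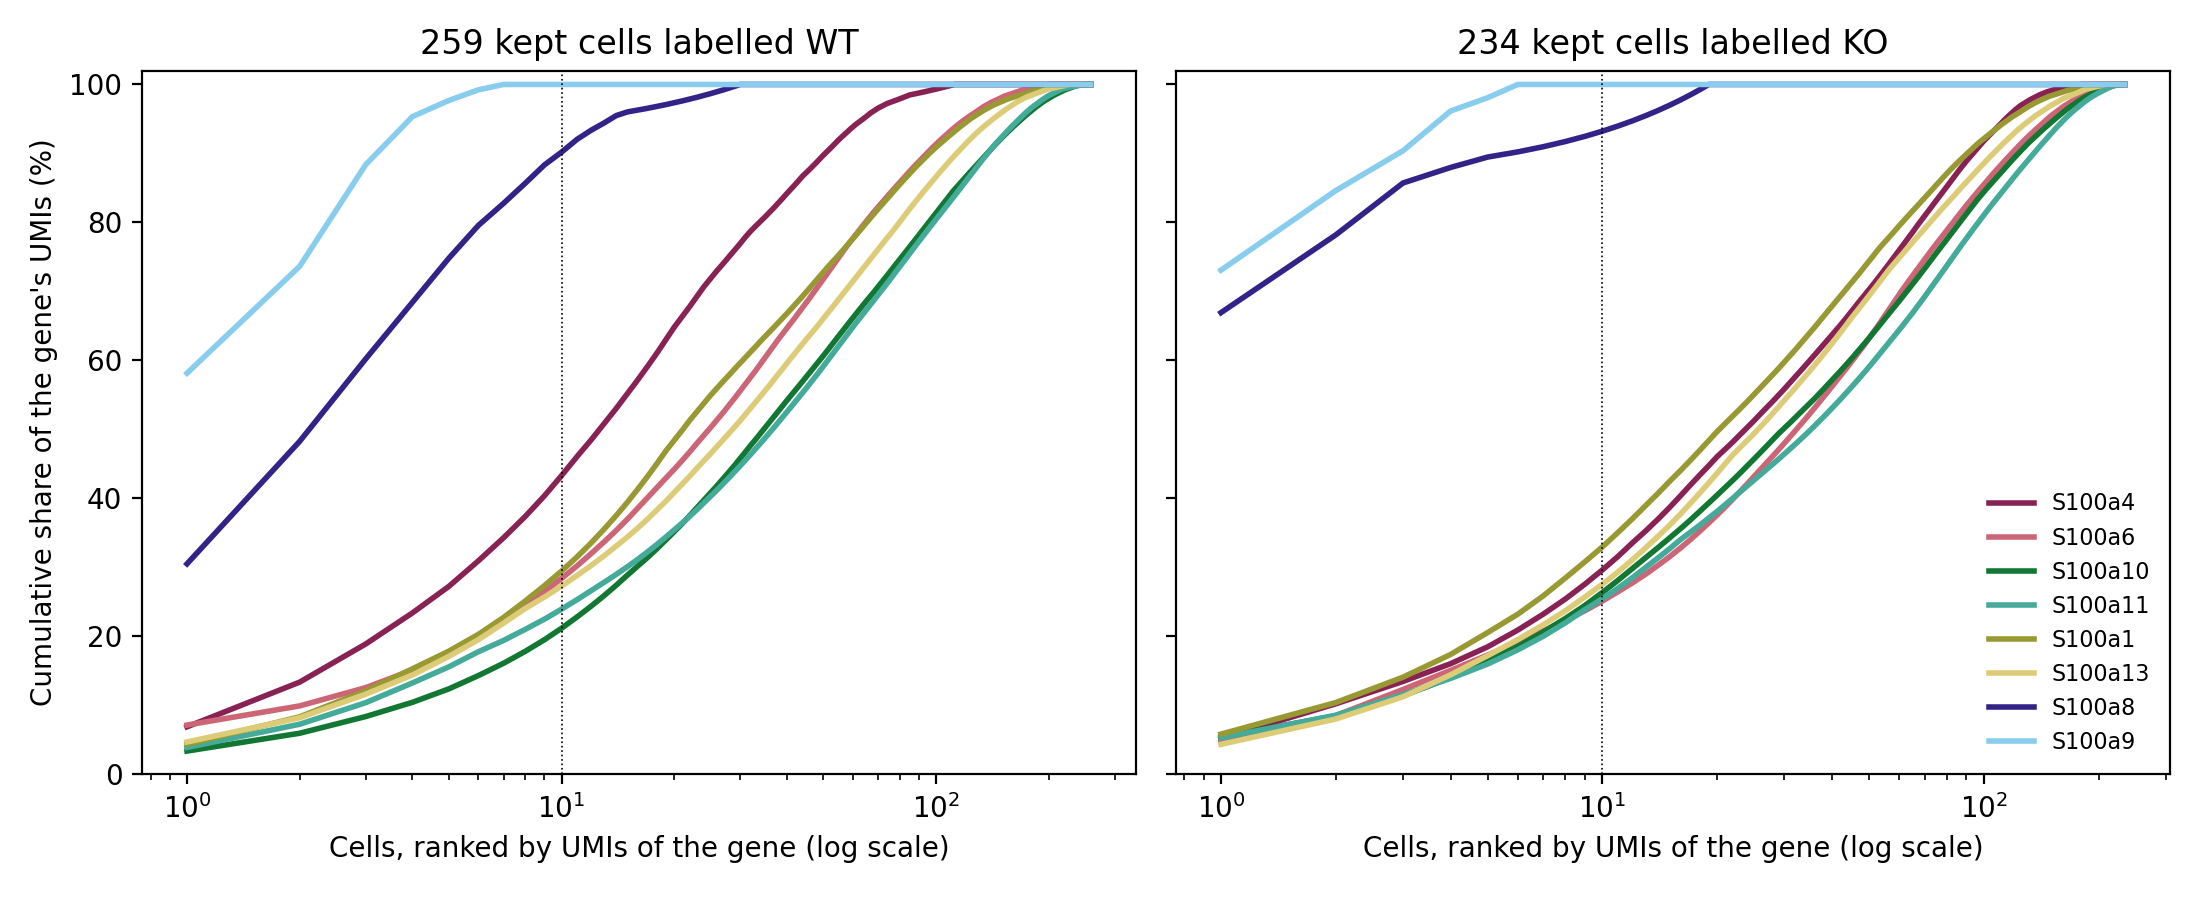
Cumulative share (percent) of each gene's UMIs against the number of cells ranked by their UMIs of that gene (log axis), for kept cells labelled WT (left) and KO (right), with a dotted line at 10 cells. S100a8 and S100a9 reach 90% or more within 10 cells in both labels, whereas S100a6 reaches 28.4% and 25.1% and the other genes stay below 50%.

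Calprotectin is a dimer of both proteins, and the overlap of the cells with either transcript was counted. Before thinning, S100a8 was in 30 WT cells and S100a9 in 7, with 2 cells holding both. In KO the numbers were 19, 6 and 3. After thinning, S100a8 was in 2 of 5 KO cells with S100a9 and 3.06% of the 229 without it, and in WT in 1 of 5 and 6.30% of 254. The top calprotectin cell of KO had 65.8 CPM of the 7 neutrophil genes in the table, below the 644 CPM of its pool, and 11 UMIs of Kit. The top WT cell had 370 CPM of these genes, near the pool's 440 CPM, with 83 UMIs of the lysozyme gene Lyz2 and 76 of Kit. Another WT cell, with 45 S100a8 UMIs, had 1309 CPM of neutrophil genes and 1 UMI of Kit. The cells with the most calprotectin transcripts thus differed from each other in these markers.

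S100a4 and S100a6 were each more often found in cells that held the other, as a description of 1 pool each. In KO, 71.6% of 211 cells with S100a6 held S100a4, against 39.1% of 23 cells without it, and in WT the shares were 34.4% of 163 and 26.0% of 96. Ranked over the thinned cells, Spearman's rho between them was 0.09 in WT and 0.14 in KO. Over all 28 pairs of the 8 genes, rho lay between -0.12 and 0.16 in either label, apart from 0.29 for S100a8 and S100a9 in KO. Correlations this weak in sparse counts are no finding, and cells of a label share libraries and preparation.

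The genes most like each member were also sought, by Spearman's rho over thinned cells among genes with a mean of at least 0.5 thinned UMI, 5541 in WT and 5600 in KO. For S100a4 the highest were Diablo in WT (0.23) and Eef2kmt in KO (0.22), and for S100a6 Neat1 in WT (0.22) and Abi3 in KO (0.25). For S100a10 they were Sh3bgrl3 (0.21) and Lsm1 (0.22), and for S100a11 Baz2b (0.31) and Bbx (0.22). For the sum of S100a8 and S100a9 they were Cfdp1 (0.22) and Anapc4 (0.25). No gene led in both labels for any of these features, and the 5 highest values of each lay between 0.18 and 0.31, too weak to name a gene as sharing a pattern.

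Tyrobp, which encodes a signalling adaptor of myeloid cells, was also higher in KO (41.3 and 130 CPM), and the cells that held it were compared with the rest. In KO, S100a4 was found in 69.2% of 107 cells with Tyrobp and 67.7% of 127 cells without it. In WT these shares were 39.5% of 38 and 29.9% of 221. Itgam, which encodes CD11b, was found in 46 KO cells, of which 71.7% held S100a4, beside 67.6% of the 188 cells without it.

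Oocyte transcripts moved with the WT levels of the pair. The WT cells over 1000 CPM of oocyte genes held 43.0% of WT S100a4 UMIs, 40.2% of S100a6 and 38.5% of S100a8, more than their 27.1% of all UMIs. For S100a8 the excess rests on 1 cell, which held 115 of the 145 UMIs. These WT cells held 0 of the 129 S100a9 UMIs. Within them S100a4 was at 131 CPM and S100a6 at 271 CPM, against 64.6 and 149.9 CPM in the other WT cells. Without these cells the log2 ratio was 2.01 (1.91 to 2.11) for S100a4, 1.63 (1.56 to 1.70) for S100a6, -0.85 (-1.16 to -0.53) for S100a8 and -1.35 (-1.85 to -0.88) for S100a9. S100a10 was then at 0.63, S100a11 at 0.46, S100a1 at 0.13 and S100a13 at 0.15. The ratios of S100a4 and S100a6 were thus as large or larger without these cells, while S100a8 fell short of 2-fold and S100a9 passed it. Leaving out only the cell with 115 S100a8 UMIs put S100a8 at -0.59 (-0.90 to -0.29), so its shift is not read as a trait of these cells.

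Within ranges of depth the S100a4 and S100a6 differences recurred. S100a4 had a log2 ratio of 1.96 in cells of 20000 to 40000 UMIs (83 WT and 90 KO cells), 1.44 in cells of 40000 to 80000 (75 and 84) and 1.67 in deeper cells (101 and 60). S100a6 had 1.74, 0.97 and 1.40, the middle value lying just under 2-fold. S100a8 had -2.42, -1.34 and -0.62. In the shallowest range S100a9 had 0 UMIs in WT and 9 in KO, in the middle range 3 and 4, and only the deepest range, with 126 and 39, had a lower level in KO (-0.95).

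**Figure D4:**
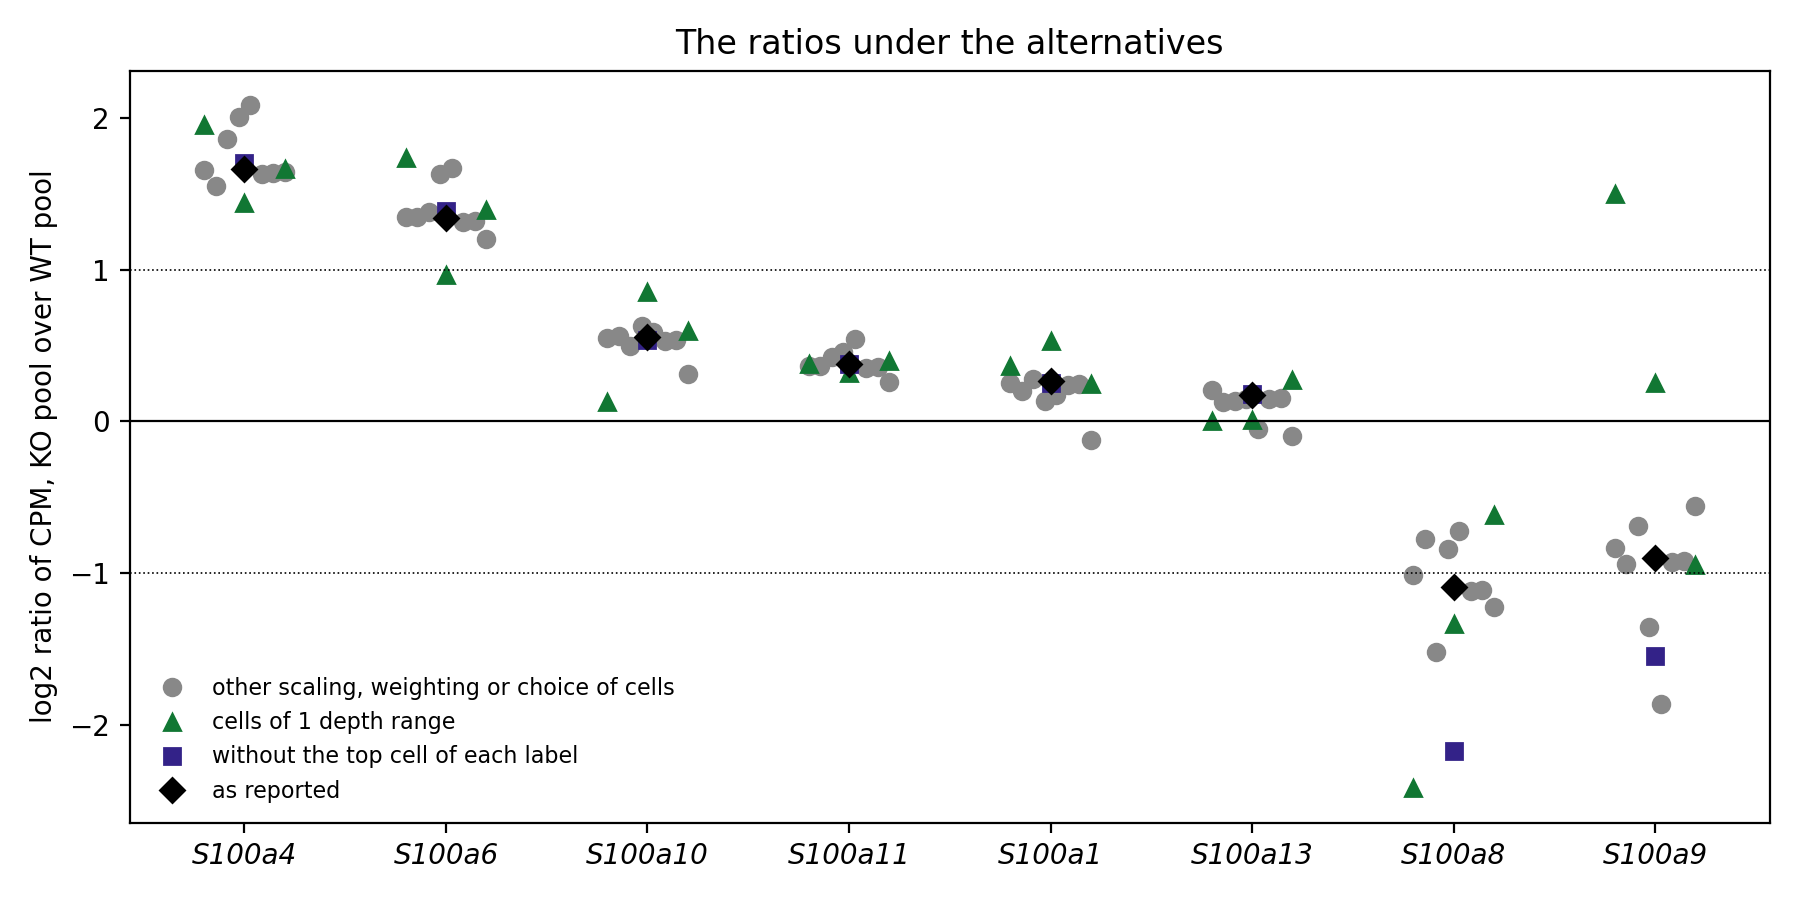
Log2 ratio of KO over WT for each gene as reported (black diamond), without the top cell of each label (square), within 3 ranges of depth (triangles) and under other scalings, weightings and choices of cells (circles), with dotted lines at 2-fold. All values of S100a4 and S100a6 lie above 0 and all values of S100a8 below it, while the S100a9 values span both signs. The uppermost S100a9 triangle depends on a floor, since WT had 0 UMIs there and was set to 3.

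The contrast runs along a short stretch of chromosome 3. In RefSeq order the S100 genes in the table follow each other as S100a1, S100a13, S100a4, S100a5, S100a6, S100a8, S100a9, S100a11 and S100a10. S100a5, which lies between S100a4 and S100a6, had 107 UMIs in WT and 92 in KO, a log2 ratio of 0.19 (-0.23 to 0.61). It was found after thinning in 2.70% of WT and 3.42% of KO cells. Its 3 top cells held 77.6% of its UMIs in WT and 72.8% in KO, so S100a5 is too scarce to be called level between the pools. The next genes on the S100a1 side, 8 in the table that are no S100 genes, had a median log2 ratio of 0.39. The lowest was Ilf2, a subunit of a nuclear RNA-binding complex, at -0.32 (-0.44 to -0.20), and the highest was Dennd4b at 1.03 (0.74 to 1.33), the single one past 2-fold. Slc39a1, a zinc transporter gene, was at 0.52, and Ints3, which encodes an Integrator subunit, at 0.92. Crtc2 (0.26), Gatad2b (-0.19), Snapin (0.53) and Chtop (0.05) lay between these extremes. The ratios of these neighbours were not computed without the oocyte-transcript cells.

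**Figure D5:**
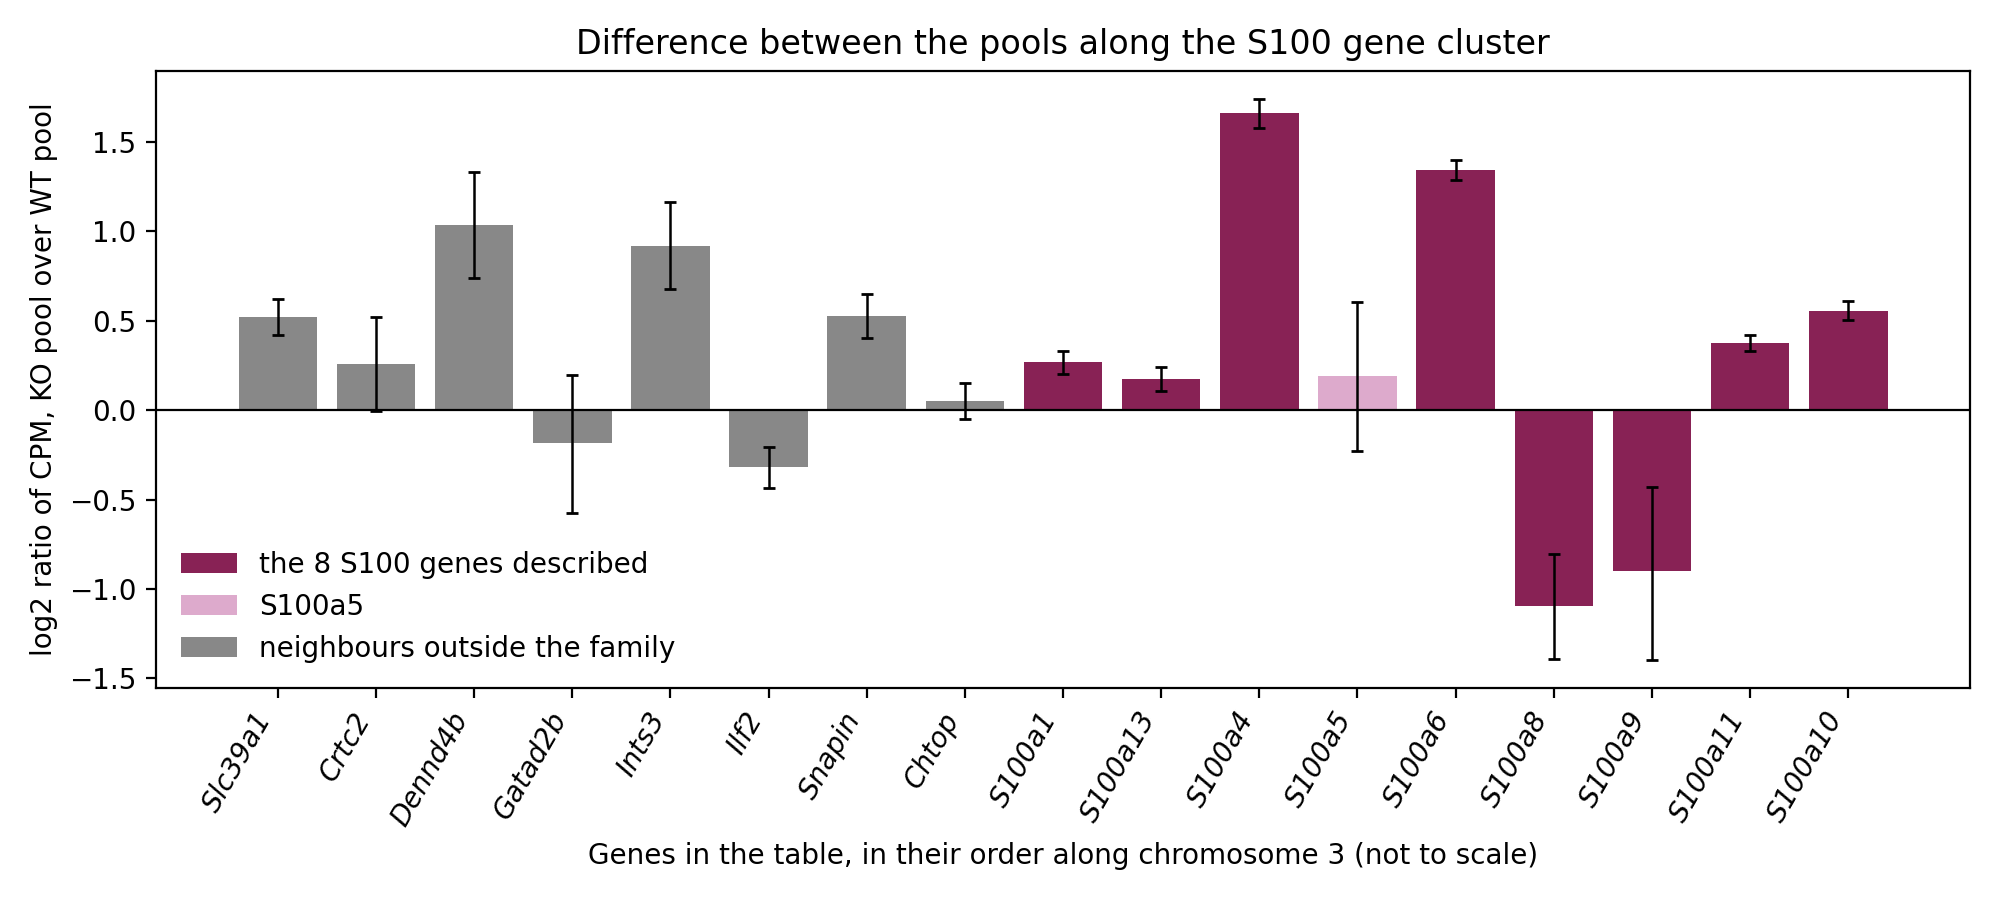
Log2 ratio of KO over WT, with 95% Clopper-Pearson intervals, for the S100 genes and the nearest genes in the table outside the family, in their order along chromosome 3 (spacing not to scale). S100a4 and S100a6 are the tallest bars, S100a5 between them is at 0.19 on few UMIs, and S100a8 and S100a9 are the 2 lowest.

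Of 28 known partners and receptors of S100 proteins, 20 were in the table, with 1 at least 2-fold higher in KO, 1 at least 2-fold lower and a median log2 ratio of 0.13. Here and for the lists that follow, the shares of all genes are 6.98% higher and 7.94% lower, or 8.81% and 6.55% without the cells over 1000 CPM of oocyte genes. Genes were in the table only with a mean count above 0.2 over all cells, so a gene below that in 1 pool entered through the other. Among others this holds for Tlr4 and Plat here and for Itgam, Ifitm6 and Car1 below, whose large ratios are therefore a description only. The gene past 2-fold upward was Tlr4, a receptor for calprotectin, with 48 UMIs in WT and 235 in KO and a log2 ratio of 2.70 (2.25 to 3.18). Plat, tissue plasminogen activator, had 243 and 2 UMIs and a ratio of -6.52 on the log2 scale (-9.57 to -4.65), but the oocyte-transcript cells held 96.7% of its WT UMIs, and 8 and 2 UMIs were left without them. The intracellular partners were closer to level. Anxa2, the partner of S100a10, was at 0.33 (0.21 to 0.45), and at 0.67 without the oocyte-transcript cells. Anxa1, the partner of S100a11, was at -0.17 (-0.26 to -0.08), and at 0.01 (-0.09 to 0.11) without them. Cacybp, the calcyclin-binding protein, was at -0.31 (-0.38 to -0.24), opposite in sign to S100a6. Ahnak, which binds the complex of S100a10 and annexin A2, was at 0.85 (0.66 to 1.04), and past 2-fold at 1.34 (1.10 to 1.58) without them. Bsg, a receptor for S100a9, was at 0.06, and Cyba, a subunit of the oxidase that calprotectin assists, at 0.20. Myh9, the myosin that S100a4 binds, was at 0.25.

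Other EF-hand proteins and genes of the actin cytoskeleton gave a frame for these values. Of 36 other EF-hand genes 34 were in the table, with 1 at least 2-fold higher, 2 lower and a median log2 ratio of 0.14, or 3, 2 and 0.20 without the oocyte-transcript cells. Ehd4 was at 1.12 and Actn1 at -2.06, and without the oocyte-transcript cells at 1.11 and -1.84. Tesc, at -5.02, and Nucb2, at 0.84, had 88.1% and 88.9% of their WT UMIs in those cells. Without them Tesc was at -2.40 (-3.61 to -1.35), and Nucb2, with 7 and 85 UMIs, at 3.56 (2.45 to 4.92). Of 20 actin and motility genes 19 were in the table, with 2 higher, 1 lower and a median of 0.29. Itgb7 was highest at 1.80 and Flna next at 1.20. Cnn3, at -1.20, and Lgals1, at -0.68, had 75.6% and 61.6% of their WT UMIs in the oocyte-transcript cells, and without those cells their sign turned, to 0.39 (-0.14 to 0.92) and 0.24 (0.16 to 0.31). No actin or motility gene was then 2-fold lower.

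Markers of myeloid cells were examined beside the S100 genes. Of 24 neutrophil genes 7 were in the table, with 2 at least 2-fold higher, 1 lower and a median log2 ratio of 0.19. Their summed level per cell ranged from 0 to 2389 CPM in WT (median 383) and from 0 to 2367 CPM in KO (median 612). Prtn3, a granule protease of early neutrophil precursors, was at 1.69 and Cebpd at 1.46. Cxcr2 was at -0.99. Ifitm6, with 165 and 1 UMIs, was at -6.96 (-12.3 to -4.46), but 97.6% of its WT UMIs lay in the oocyte-transcript cells, and 4 and 1 UMIs were left without them. The median of the list was then 0.02, with none at least 2-fold lower. The other 17 neutrophil genes, among them those of the granules Elane, Mpo, Camp, Ltf and Lcn2, were not analysed here.

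Of 20 monocyte and macrophage genes 9 were in the table, 4 of them at least 2-fold higher in KO and none lower, with a median log2 ratio of 0.79. Their summed level ranged from 16.5 to 2341 CPM over WT cells (median 436) and from 0 to 3065 CPM over KO cells (median 864). Itgam was highest at 3.67 and Tyrobp next at 1.65, while Ctss (-0.45) and Lyz1 (0.29) were lowest. Without the oocyte-transcript cells the median of the list was 0.60 and Itgam was at 3.23, with 4 genes again at least 2-fold higher. These genes stood higher in the same pool as S100a4 and S100a6, and their part in that difference was not tested.

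Markers of other cells differed in their own ways. The 3 of 17 lymphocyte genes in the table, Cd79b (0.64), Nkg7 (0.26) and Klrb1c (0.03), were not past 2-fold, and without the oocyte-transcript cells they were at 0.80, 0.05 and -0.43. Of 14 erythroid genes 6 were in the table, with 1 higher, 3 lower and a median of -0.96, or -1.14 without those cells. Car1, with 3 and 989 UMIs, was at 8.77 (7.22 to 11.1) and Tfrc at 0.59, with Klf1 at -2.04 and Epor at -1.63 the lowest. All 16 stem cell genes were in the table, with 1 higher, 1 lower and a median of 0.08, between Slamf1 at -2.26 and Hlf at -0.68 on the low side and Mecom at 1.14 and Cd34 at 0.77 on the high side. Without the oocyte-transcript cells Mecom was at 0.999 (0.85 to 1.15), no stem cell gene was past 2-fold upward and the median was -0.05. Of 32 oocyte genes 28 were in the table, and 27 were at least 2-fold lower in KO, with a median of -5.83. Genes with few or no UMIs in KO cannot be ranked, among them Fbxw18 with 1532 and 3 UMIs (-8.59, interval -10.9 to -7.04) and Fbxw27 with 978 and 3 (-7.94, -10.2 to -6.39). The nearest to level were Tle6 (-0.79) and Oas1c (-2.77). Without the cells over 1000 CPM of these genes, 23 of the 28 were at least 2-fold lower and 1, Oosp1, with 11 and 36 UMIs, was higher, and the sign of Tle6 turned (0.06, -0.06 to 0.17).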

How the data were processed

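The series measured single HSCs by 3′ RNA sequencing with UMIs. The authors separated reads by cell barcode, aligned them to an mm9 transcriptome, removed duplicate UMIs, dropped cells with low mapping, under 2000 genes or under 20000 transcripts, dropped genes with low mean counts, and normalized. The deposited table holds normalized counts, each raised by 1 and put on the log2 scale, for 10720 genes and 586 cells, and the aligner and normalization method were not given in the sources used here. Undone, they were whole multiples of each cell's smallest value (100% within 0.01 of a count), which gave back the UMIs. The design allowed for tests by library, but columns carry only the genotype, so each genotype was 1 pool and no p-value was computed.

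The same limits were applied again over the genes in the table, which left out 93 cells that had passed them in the authors' processing. Kept cells had 20027 to 496293 UMIs, and these were summed to CPM. Totals exclude genes removed before deposit. Log2 ratios have Clopper-Pearson intervals and levels Poisson intervals, at 95% and for counting error only, and pooled counts under 3 were raised to 3, except where a ratio is given on 1 or 2 UMIs. Shares used cells thinned to 20000 UMIs. No doublet caller was run on the hand-picked cells, and none were clustered. Python 3.11.15, numpy 2.4.6, scipy 1.17.1, pandas 2.3.3 and matplotlib 3.10.9 were used. Recovery of UMIs, thinning and ratio intervals were tried on simulated counts that held counting error only. The intervals were thus not checked on counts clumped in few cells. Promoter windows came from RefSeq GRCm38.p6, and gene order but no mm9 position was taken from it. Protein sequences were not used here.

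The 8 members, the gene lists and the pairs were chosen with earlier results of these data known. Named were these members, other S100 genes in the table, Med23, known partners, partners past 2-fold, the 2 highest and 2 lowest ratios of each other list, the most alike genes and genomic neighbours, with extremes taken under that floor. Slc39a1, Ints3, Myh9, Zp3 and the sort markers were named for their role or position, and Oosp1 after its value was seen. Alternatives are given in the closing section.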

Additional observations from a re-analysis of the deposited data

How the results depend on the processing

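On the scale of the reported ratio there were 12 alternatives. S100a4 (1.44 to 2.09), S100a6 (0.97 to 1.74), S100a10 (0.13 to 0.86) and S100a11 (0.26 to 0.54) stayed above 0 and S100a8 (-2.42 to -0.62) below 0 in all 12. All ratios shifted by -0.03 under median-of-ratios scaling and by -0.02 under upper-quartile scaling. S100a1 reversed to -0.12 and S100a13 to -0.10 with the deposited values averaged over cells, and S100a13 to -0.047 without cells over 300 CPM of oocyte genes. S100a9 reversed to 0.25 in cells of 40000 to 80000 UMIs, on 3 and 4 UMIs. In cells of 20000 to 40000 it reversed to 1.50 with the 0 WT UMIs set to a floor of 3, and the lower limit of its interval was 0.90.
The pair S100a4 and S100a6 moved to 1.54 when cells were thinned before summing, 1.75 and 1.81 without cells over 1000 and 300 CPM of oocyte genes, 1.35 for the averaged deposited values, 1.50 without the top cells, and 1.81 and 1.13 in cells of 20000 to 40000 and 40000 to 80000 UMIs. The pair S100a8 and S100a9 moved to -1.30 with thinning, -2.25 without the top cells, and -1.81 and -0.72 in the shallowest and deepest ranges. The difference between the pairs moved to 2.84, 2.76, 2.96, 3.75, 3.62 and 2.21 with thinning, without cells over 1000 or 300 CPM of oocyte genes, without the top cells, and in the shallowest and deepest ranges. The mean over cells of log2(CPM/100 + 1), another scale, gave 1.29, -0.077 and 1.36 for the pairs and their difference. The causes of these shifts were not tested.
Of the 8 genes, 1 in place of 2 was at least 2-fold higher in cells of 40000 to 80000 UMIs and 3 in cells of 20000 to 40000, where the added gene was S100a9 with its WT count at the floor. For lower genes the number was 0 at 3000 genes and 30000 UMIs or more and in cells over 80000 UMIs, and 2 without the top cells. The difference between labels in the share of cells with S100a4 or S100a6, 21.4 percentage points, moved to 12.5 without thinning and 28.0 with a minimum of 2 UMIs. The limit of 300 CPM, the depth ranges, the Med23 value without its top cell and the ratios of other genes without oocyte-transcript cells were chosen after seeing the data. No paired analysis was possible because cells are named by genotype alone. Leaving out each replicate was not run for the same reason, nor was a run without the gene filter, which was applied before deposit. S100a8 and S100a9 rest on few UMIs and few cells.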

Other observations

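The 93 cells below the minimum of genes or UMIs, 45 labelled WT and 48 labelled KO, entered none of the ratios above. In them S100a4 had 47 UMIs in WT and 171 in KO, or 69.1 and 228 CPM, a log2 ratio of 1.72 (1.25 to 2.22). S100a6, at 90 and 327 UMIs, also stood at 1.72 (1.38 to 2.07). S100a8 had 4 UMIs in WT and 11 in KO, and S100a9 had 2 and 4, so a difference in calprotectin transcripts was not detectable at this depth. S100a13 stood at 144 and 283 CPM, a log2 ratio of 0.97 (0.62 to 1.33), above its ratio of 0.17 in the kept cells. S100a10 was at 0.50 (0.19 to 0.82) and S100a11 at 0.11 (-0.13 to 0.36). These cells belong to the same series as the others, their libraries are not known, and they are no independent samples.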
